A study of Mus musculus with 17 samples.

Results

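The step from the shared megakaryocyte and erythroid precursor to the committed megakaryocyte progenitor was described from 8 of the 17 arrays of a study of mouse bone marrow fractions. The arrays were chosen by the sorting gate in their titles. The MkP fraction (megakaryocyte progenitor, 3 arrays) was sorted as Lin-Sca1-Kit+Itga2b+Slamf1+, and the preMegE fraction (the shared precursor, 5 arrays) as Lin-Sca1-Kit+Itga2b-FcgRlowSlamf1+Englow. Lin- means depleted of cells bearing markers of mature blood lineages, and Kit, Sca1, Itga2b (CD41), Slamf1 (CD150), the Fc gamma receptors and Eng (endoglin) are surface proteins that were stained for sorting. The MkP gate gives no Fc gamma receptor or endoglin term, so the gates differed in more than Itga2b. Both fractions came from adult mice aged 10 to 14 weeks. The labels name no strain, genotype or treatment, and do not say how many mice were pooled or whether arrays of a fraction came from separate sorts, so each p-value rests on how far these arrays vary, which may be technical variation alone. RNA was amplified through a second round of in vitro transcription and hybridised to Affymetrix 3-prime expression arrays, and the values are RMA intensities, a normalised brightness per probe set on a linear scale. In such bulk samples, fewer cells of a type and less RNA per cell cannot be told apart.

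Megakaryocytes are the bone marrow cells that shed platelets. They arise from a precursor shared with red cells, replicate their DNA without dividing, fill their cytoplasm with granules and internal membrane, and extend proplatelets along bundles of microtubules. GATA1 with FOG1, and the factors RUNX1, FLI1, GFI1B, NFE2 and SCL/TAL1, are known to drive this programme, and KLF1 and FLI1 are known to oppose each other at the branch between red cells and megakaryocytes.

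Arrays of the same fraction resembled each other more than arrays of different fractions. Over all probe sets, the correlation of log2 intensities was 0.979 to 0.985 among the MkP arrays, 0.974 to 0.993 among the preMegE arrays and 0.939 to 0.960 between them. The log2 ratio of the 3-prime to the 5-prime Gapdh control probe set, a measure of how far the amplified RNA was shortened, was 3.85 ± 0.41 (SD, n = 3) in MkP and 3.58 ± 0.56 (SD, n = 5) in preMegE, with overlapping ranges (two-sided exact permutation p = 0.607). The 75th percentile of intensity was 52.0 to 56.9 in MkP and 53.4 to 74.4 in preMegE (two-sided exact permutation p = 0.0714). The number of arrays limits the precision of every value below.

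Of 18193 genes, 1884 (10.4%) differed between MkP and preMegE at an adjusted p under 0.05 in limma fitted to all 17 arrays, on log2(intensity + 16). Of these, 724 (3.98%) lay higher in MkP than in preMegE and 1160 (6.38%) lay lower. These shares of all genes are the background for the counts of every list below. Changes of at least 2-fold were called for 199 higher genes (1.09%) and 494 lower genes (2.72%). The MkP and preMegE arrays did not overlap for 3677 genes (20.2%), among them 1781 of the 1884 that passed. The split between higher and lower depended on scaling: quantile normalization of the arrays gave 998 higher and 939 lower. Without MkP replicate 3 the total was 1187, with 644 lower.

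The median log2 difference over all genes was 0.01, but it varied with the level of the gene. With the genes in 10 bins of equal number by mean level, the median difference in the 4 brightest bins lay between -0.32 and -0.18, and in the other 6 bins between 0.02 and 0.08. After quantile normalization the medians of all bins lay between -0.03 and 0.05. A list of abundant genes with a median near -0.30 was therefore close to its background, and medians after quantile normalization are given where they matter.

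**Figure D1:**
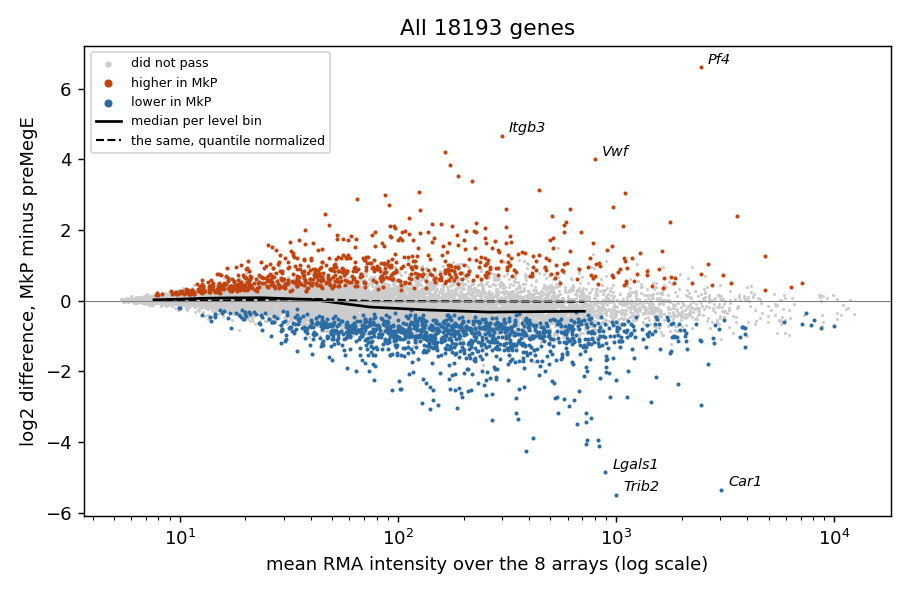
Log2 difference between MkP and preMegE (y axis) against the mean RMA intensity over the 8 arrays (x axis, log scale) for the 18193 genes, with 724 higher genes in orange, 1160 lower genes in blue and the others in grey. The solid line, the median of each of 10 bins of genes by level, dips to -0.32 among bright genes, and the dashed line after quantile normalization stays between -0.03 and 0.05.

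The 15 largest rises were led by platelet genes. They were Pf4 (6.60), Itgb3 (4.66), Slc35d3 (4.197), Vwf (4.00), Mmrn1 (3.85), Fhl1 (3.52), Gp1bb (3.40), Cavin2 (3.13), Tpm4 (3.07), Plek (3.05), Selp (3.00), Gucy1a1 (2.87), Mrvi1 (2.70), Itga2b (2.65) and Vcl (2.60), each with its log2 difference. Itga2b was part of the gate, so its rise describes the sort. The 15 largest falls were Trib2 (-5.50), Car1 (-5.34), Lgals1 (-4.85), Scin (-4.25), St8sia6 (-4.11), Tent5a (-4.05), Ermap (-3.95), Zg16 (-3.94), Ugcg (-3.88), Aqp1 (-3.48), Ces2g (-3.44), Slc40a1 (-3.38), Mettl7a1 (-3.34), Clec4d (-3.31) and Trp53inp1 (-3.19). Of these 15, Car1, Ermap, Aqp1 and Ces2g belong to the list of red cell genes used below and Slc40a1 to that of heme and iron genes.

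The RefSeq promoter table (GRCm38.p6, 250 bases before to 50 after a gene's start) held an entry for 13 of the 15 largest rises and for 10 of the 15 largest falls. Sequences are shown for 4 megakaryocyte genes that were higher together, 2 of which hold a GATA match and 3 an ETS match, and for 1 red cell gene that was lower. They read 5′ to 3′ along the gene's strand. Capitals mark matches, on either strand, to the GATA letters AGATAA or TGATAA, the ETS letters AGGAAG or CGGAAG, and the RUNX letters TGTGGT. No matches overlapped each other. The windows are chr5:90772185-90772484 (plus strand) for Pf4, chr11:102469834-102470133 (minus strand) for Itga2b, chr16:18622354-18622653 (minus strand) for Gp1bb, chr6:60944067-60944366 (plus strand) for Mmrn1 and chr4:119189946-119190245 (minus strand) for Ermap.
Pf4: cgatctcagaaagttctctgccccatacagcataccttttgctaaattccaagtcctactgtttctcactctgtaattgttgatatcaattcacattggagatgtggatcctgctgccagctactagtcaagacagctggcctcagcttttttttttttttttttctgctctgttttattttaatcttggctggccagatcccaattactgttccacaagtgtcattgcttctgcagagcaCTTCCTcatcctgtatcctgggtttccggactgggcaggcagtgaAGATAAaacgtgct
Itga2b: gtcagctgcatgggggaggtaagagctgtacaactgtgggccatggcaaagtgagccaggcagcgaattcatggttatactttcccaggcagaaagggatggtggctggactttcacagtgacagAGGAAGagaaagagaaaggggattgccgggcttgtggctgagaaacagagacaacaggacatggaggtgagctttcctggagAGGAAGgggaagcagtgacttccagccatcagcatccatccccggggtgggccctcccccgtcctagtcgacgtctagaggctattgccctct
Gp1bb: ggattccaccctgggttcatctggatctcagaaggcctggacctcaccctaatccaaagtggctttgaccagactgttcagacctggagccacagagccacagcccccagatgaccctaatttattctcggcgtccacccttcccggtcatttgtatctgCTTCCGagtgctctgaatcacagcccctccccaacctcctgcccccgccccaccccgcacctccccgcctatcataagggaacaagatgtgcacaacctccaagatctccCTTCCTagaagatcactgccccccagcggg
Mmrn1: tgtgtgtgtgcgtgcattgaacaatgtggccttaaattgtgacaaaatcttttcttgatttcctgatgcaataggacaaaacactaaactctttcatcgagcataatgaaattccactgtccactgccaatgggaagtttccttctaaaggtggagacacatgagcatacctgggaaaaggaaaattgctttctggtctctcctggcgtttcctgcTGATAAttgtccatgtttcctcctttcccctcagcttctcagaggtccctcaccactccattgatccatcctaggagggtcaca
Ermap: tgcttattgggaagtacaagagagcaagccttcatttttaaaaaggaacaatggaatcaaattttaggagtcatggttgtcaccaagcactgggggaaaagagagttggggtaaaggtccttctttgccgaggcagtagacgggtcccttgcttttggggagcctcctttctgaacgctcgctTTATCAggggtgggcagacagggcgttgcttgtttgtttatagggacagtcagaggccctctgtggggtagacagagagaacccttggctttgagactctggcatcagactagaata

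The Pf4 window held 1 GATA and 1 ETS match, the Itga2b and Gp1bb windows 2 ETS matches each, and the Mmrn1 and Ermap windows 1 GATA match each. Among the 13 genes with large rises, 4 (30.8%) had a GATA match in at least 1 promoter, against 14.96% of the genes on the array that have a promoter entry. For ETS the shares were 53.9% and 54.3%, and for RUNX 15.4% and 16.1%. Among the 10 genes with large falls, GATA letters stood in 2, ETS letters in 6 and RUNX letters in 1. A match describes the letters of this window and is not a binding site.

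Receptors that let platelets adhere to a damaged vessel wall and to each other rose in part. Of 20 measured, 10 rose and 1 fell, 9 did not pass, and 16 had a higher value in MkP, passed or not, with a median log2 difference of 0.61. Itgb3, which pairs with Itga2b to form the platelet fibrinogen receptor, gave intensities of 896, 757 and 659 in the MkP arrays and 13.8, 19.2, 13, 15.9 and 13.5 in the preMegE arrays, in replicate order as throughout. Its log2 difference was 4.66 (SE 0.15, adjusted p = 1.48e-10). Every MkP array stood far above every preMegE array, where the values were near the floor of the array. Itga2b itself measured 1943, 2343 and 1886 in the MkP arrays and 349, 209, 376, 336 and 324 in the preMegE arrays, so its transcript was well above the floor in cells sorted as negative for the protein. The difference was 2.65 (SE 0.16, adjusted p = 7.55e-08).

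Gp1bb, a subunit of the receptor for von Willebrand factor, had intensities of 530.1, 578 and 467 in the MkP arrays and 30.7, 40.9, 46.6, 27.0 and 33.5 in the preMegE arrays. The difference was 3.40 (SE 0.12, adjusted p = 1.98e-10), with no overlap. For its partner subunit Gp9 the values were 179, 205 and 143 in the MkP arrays and 69.6, 53.9, 65.6, 72.1 and 62.7 in the preMegE arrays, again without overlap and with a difference of 1.24 (SE 0.12, adjusted p = 7.26e-06). Gp5, the remaining subunit of that receptor measured here, did not pass: its intensities were 165, 204 and 140.3 in the MkP arrays and 163, 80.3, 225, 87.2 and 101 in the preMegE arrays, the groups overlapped and the difference was 0.41 (SE 0.27, adjusted p = 0.382).

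Selp encodes P-selectin, which granules carry to the platelet surface, and measured 187, 235 and 215 in the MkP arrays and 11.2, 11.6, 14.96, 12.3 and 12.5 in the preMegE arrays. Its difference was 3.00 (SE 0.08, adjusted p = 2.51e-11). The tetraspanin Cd9 (1.59, adjusted p = 1.44e-05), the junction proteins Esam (1.46, adjusted p = 1.64e-06) and F11r (1.24, adjusted p = 5.36e-05), and Clec1b (1.00, adjusted p = 0.00126), the platelet podoplanin receptor, were also higher. Icam2, an adhesion molecule that binds leukocyte integrins, was the exception, with 107, 171 and 94.5 in the MkP arrays and 380.1, 247, 353, 296 and 281 in the preMegE arrays and a difference of -1.25 (SE 0.22, adjusted p = 0.0021).

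Proteins stored in alpha granules rose in part. Of 29 cargo genes measured, 10 rose and 0 fell, and the median was 0.23. Pf4, platelet factor 4, showed the largest difference of all genes tested: 6373, 6772 and 6148 in the MkP arrays and 42.1, 67.9, 50.6, 48.8 and 45.2 in the preMegE arrays, or 6.60 (SE 0.16, adjusted p = 8.94e-12). The spread among MkP arrays was small beside the gap between the groups. Vwf, von Willebrand factor, measured 1739, 1909 and 2167 in the MkP arrays and 114, 55.2, 168, 107 and 113 in the preMegE arrays, so preMegE already showed a signal above the floor. Its difference was 4.00 (SE 0.21, adjusted p = 2.30e-08), and the groups did not overlap.

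Mmrn1 encodes multimerin, which binds coagulation factor V inside granules, and gave 429.8, 398 and 487 in the MkP arrays and 13.9, 19.2, 15.6, 11.1 and 18.2 in the preMegE arrays. The difference was 3.85 (SE 0.11, adjusted p = 2.51e-11). Also called higher were Clu (2.56, adjusted p = 1.56e-07), the chaperone clusterin, Ppbp (2.01, adjusted p = 1.80e-06), the precursor of platelet basic protein, Timp3 (1.72, adjusted p = 2.02e-08), a metalloproteinase inhibitor, Pros1 (1.14, adjusted p = 2.82e-04), anticoagulant protein S, and F5 (0.95, adjusted p = 1.40e-07), coagulation factor V itself. Srgn, the proteoglycan core of granules, was bright in both fractions at 3065, 3348 and 2626 in the MkP arrays and 3785, 3269, 3314, 3504 and 3406 in the preMegE arrays and did not pass, with a difference of -0.20 (SE 0.20, adjusted p = 0.576).

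The machinery that builds and releases granules moved in part and in both directions. Of 33 genes, 5 rose and 3 fell, or 15.2% and 9.09%, beside 3.98% and 6.38% of all genes. The median was -0.09, and its sign turned to 0.17 after quantile normalization. In place of 5 that rose, the count was 3 without MkP replicates 1 or 3 or preMegE replicate 4, and in place of 3 that fell, the count was 1 without MkP replicate 3 and 5 without preMegE replicate 2. Slc35d3, a transporter needed for dense granules, was near the floor in preMegE and measured 510.4, 404 and 366 in the MkP arrays and 7.40, 7.54, 8.39, 7.68 and 8.66 in the preMegE arrays. Its difference was 4.197 (SE 0.22, adjusted p = 2.21e-08), the third largest rise of all genes. Rab27b, a GTPase that guides granules to the membrane, gave 254, 265 and 224 in the MkP arrays and 64.6, 50.2, 66.6, 43.1 and 47.0 in the preMegE arrays, a difference of 1.92 (SE 0.11, adjusted p = 4.56e-08) with no overlap. Stx11 (1.14, adjusted p = 9.27e-05), a syntaxin of platelet secretion, the second secretory GTPase Rab27a (1.07, adjusted p = 0.0321) and Hps4 (0.71, adjusted p = 0.0311) were higher as well. The falls were Snap23 (-1.63, adjusted p = 0.0394), a membrane fusion protein, Rabgef1 (-1.06, adjusted p = 0.0205) and Slc18a2. Slc18a2, which loads monoamines such as serotonin into granules, measured 53.6, 60.2 and 59.9 in the MkP arrays and 257, 144, 193, 208 and 120.3 in the preMegE arrays, with a difference of -1.40 (SE 0.24, adjusted p = 0.00146). The abundant Arf6, a GTPase of membrane traffic, had means of 2037 and 2456 and did not pass, with a difference of -0.25 (SE 0.20, adjusted p = 0.481). Its probe sets disagreed in limma fitted to all probe sets with a gene. A dimmer one, with a mean of 206.8, was at -1.25 (adjusted p = 0.0461), and those at 0.02 and -0.06 did not pass. With single arrays left out, the call was lost by Rab27a without MkP replicates 1 or 3 or preMegE replicate 4 (adjusted p up to 0.161), Hps4 without MkP replicates 1, 2 or 3 or preMegE replicates 1, 2 or 4 (adjusted p up to 0.115), Snap23 without MkP replicates 1, 2 or 3 or preMegE replicates 1, 3 or 4 (adjusted p up to 0.176) and Rabgef1 without MkP replicate 3 (adjusted p up to 0.131).

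**Figure D2:**
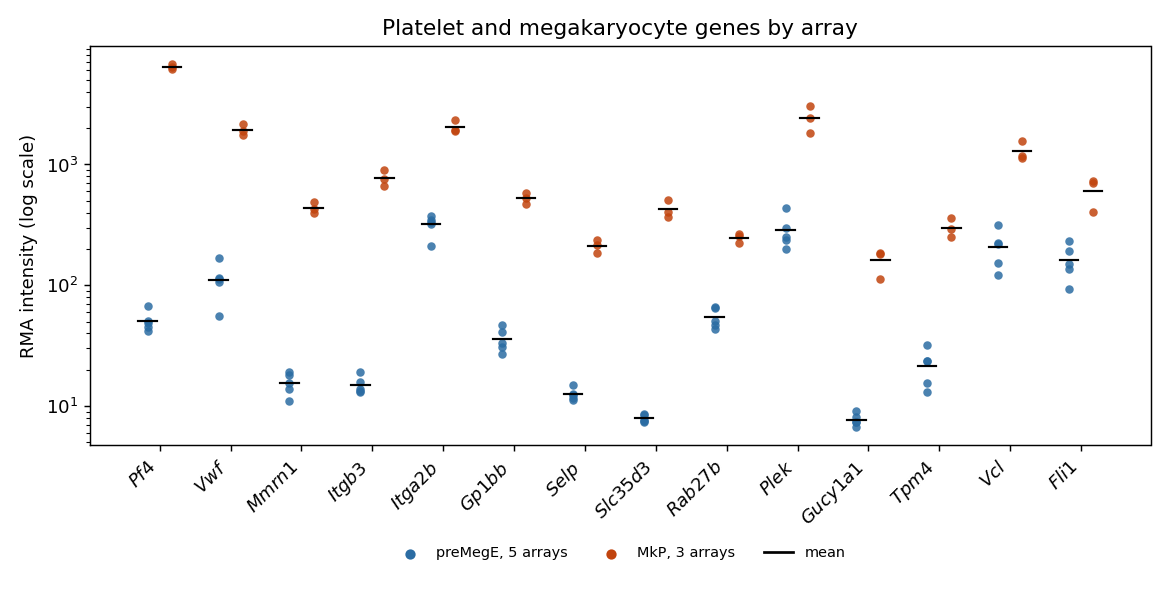
RMA intensity (y axis, log scale) of 14 platelet and megakaryocyte genes in the 5 preMegE arrays (blue) and the 3 MkP arrays (orange), 1 point per array with a bar at the mean. In each of the 14 genes all MkP points lie above all preMegE points, from Pf4 with a log2 difference of 6.60 to Fli1 with 1.83.

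Receptors for platelet agonists and the signalling proteins behind them formed the longest of the platelet lists. Of 49 measured, 17 rose and 0 fell, with a median of 0.47. The rises were the most by number among these lists and made up 34.7%, beside 3.98% of all genes. By share, 50% of the adhesion receptors rose, 35% of the cytoskeleton list, 34.5% of the granule cargo and 15.2% of the granule machinery. For the late platelet genes described below the share was 66.7%. Under quantile normalization 29 rose. In place of 0 that fell, the count was 1 without MkP replicate 2 or preMegE replicate 2. Plek encodes pleckstrin, the main protein kinase C substrate of platelets, and measured 2443, 3059.5 and 1828 in the MkP arrays and 433, 201, 237, 252 and 297 in the preMegE arrays, a difference of 3.05 (SE 0.32, adjusted p = 2.23e-05). Rap1b, the GTPase that activates platelet integrins, gave high values in both fractions, at 7194, 8884 and 5719 in the MkP arrays and 1447, 1035, 1711, 1394 and 1285 in the preMegE arrays. Its difference was 2.38 (SE 0.36, adjusted p = 6.00e-04), and the arrays did not overlap.

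Gucy1a1, a subunit of the nitric oxide receptor guanylate cyclase, was at the floor in preMegE, with 113, 183 and 186 in the MkP arrays and 8.05, 6.68, 9.11, 7.41 and 7.35 in the preMegE arrays. The difference was 2.87 (SE 0.12, adjusted p = 2.69e-09). Other parts of the cyclic GMP branch were higher too: Mrvi1 (2.70, adjusted p = 3.86e-08), a substrate of the cyclic GMP-dependent kinase, and Pde5a (1.48, adjusted p = 3.67e-05), which degrades cyclic GMP. Among receptors, Ptger3 (2.08, adjusted p = 2.14e-04) binds prostaglandin E, Tbxa2r (1.24, adjusted p = 2.51e-05) binds thromboxane, F2rl2 (1.70, adjusted p = 2.59e-05) is a thrombin receptor that assists its relatives on mouse platelets, and P2rx1 (0.98, adjusted p = 0.00186) is an ATP-gated channel. The receptor-like proteins Treml1 (1.96, adjusted p = 5.37e-07) and Pear1 (1.69, adjusted p = 2.77e-04), the phospholipase Plcg2 (1.76, adjusted p = 2.05e-07) and the G protein subunit Gnaz (0.97, adjusted p = 3.42e-05) were higher as well. F2r, the founding member of the thrombin receptor family, was bright in both fractions with means of 4649.7 and 4100.2 and did not pass, at 0.18 (SE 0.19, adjusted p = 0.609). For P2ry12, the receptor for ADP, the means were 10.8 and 8.71, near the floor in both.

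The cytoskeleton list, which covers microtubules, actin, spectrin and their regulators, held 14 rises and 3 falls among 40 genes, with a median of 0.26. Tpm4, a tropomyosin that stabilises actin filaments, measured 289, 358 and 249 in the MkP arrays and 23.6, 13.2, 23.6, 32.3 and 15.6 in the preMegE arrays, a difference of 3.07 (SE 0.22, adjusted p = 4.91e-07). Vcl encodes vinculin, which links integrins to actin, and gave 1177, 1552 and 1134 in the MkP arrays and 225, 122, 318, 221 and 152 in the preMegE arrays, or 2.60 (SE 0.24, adjusted p = 5.80e-06). Tmsb4x, the actin monomer binder thymosin beta 4, was bright in preMegE already, at 3389, 3571 and 3447 in the MkP arrays and 696, 734, 644, 783 and 819 in the preMegE arrays, and differed by 2.22 (SE 0.18, adjusted p = 1.58e-06). In all 3 of these genes the groups were well apart.

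Both nonerythroid spectrin chains, Sptan1 (2.13, adjusted p = 8.33e-06) and Sptbn1 (1.95, adjusted p = 9.76e-05), were higher, and so were myosin light chain kinase Mylk (2.34, adjusted p = 2.65e-06), cortactin Cttn (1.94, adjusted p = 1.64e-05), alpha-actinin Actn1 (1.66, adjusted p = 8.35e-05) and zyxin Zyx (1.28, adjusted p = 0.00462). Among tubulins, Tuba8 (2.19, adjusted p = 6.28e-06) and Tubb6 (1.03, adjusted p = 0.00273) rose, and Tubb1, the beta tubulin of the platelet marginal band, measured 30.0, 70.3 and 70.0 in the MkP arrays and 18.3, 23.9, 19.0, 21.4 and 16.7 in the preMegE arrays, a difference of 0.97 (SE 0.16, adjusted p = 0.00132). Tuba4a was bright in both fractions, with means of 9034 and 8331, and did not pass at 0.12 (SE 0.10, adjusted p = 0.53). Besides Myh10, the falls were Pdlim1 (-1.05, adjusted p = 0.0176) and the ankyrin Ank1 (-0.95, adjusted p = 0.00694), which missed the threshold after quantile normalization (adjusted p = 0.13). The nonmuscle myosin heavy chains differed: Myh10 measured 58.9, 22.4 and 49.3 in the MkP arrays and 348, 246, 419, 313 and 267 in the preMegE arrays with a difference of -2.52 (SE 0.22, adjusted p = 2.65e-06), and Myh9 did not pass at 0.95 (SE 0.40, adjusted p = 0.152). Myh9 is the form that platelets keep, and Myh10 is known to be silenced as megakaryocytes leave the mitotic cycle. A call did not hold for Pdlim1 without MkP replicates 1 or 3 (adjusted p up to 0.0986).

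A shorter list of genes typical of late megakaryocytes and platelets gave 10 rises among 15 genes and a median of 1.00. Several of its genes, such as Selp, Ppbp, Treml1 and Tubb1, are also counted above. Its member Trpc6, a cation channel, gave 96.5, 145 and 93.1 in the MkP arrays and 6.80, 8.25, 6.21, 6.92 and 6.50 in the preMegE arrays, a difference of 2.45 (SE 0.11, adjusted p = 2.72e-09). Itga2, a chain of a collagen receptor, did not pass, at 0.06 (SE 0.08, adjusted p = 0.688), a sign that turned after quantile normalization.

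**Figure D3:**
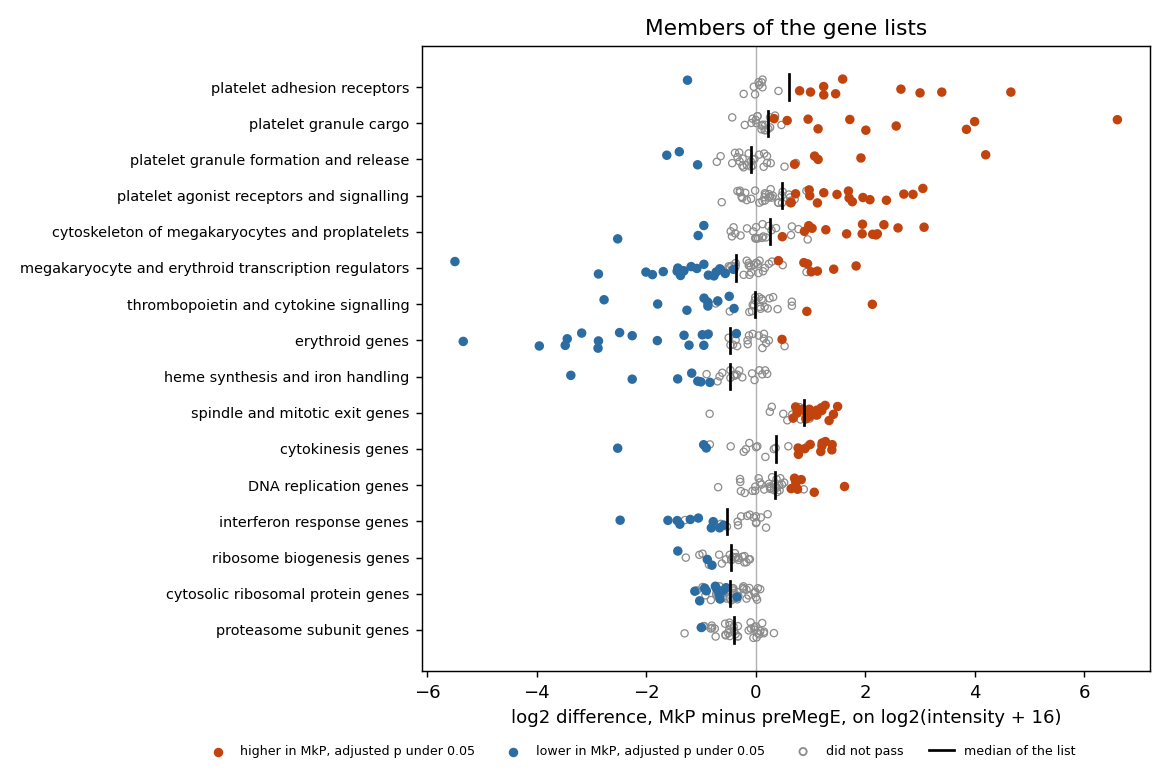
Log2 difference between MkP and preMegE (x axis) of each measured member of 16 gene lists (rows), with filled points for members past the test (orange higher, blue lower), open points for the others and a black bar at the list's median. The points of the spindle list crowd around its median of 0.88, while the erythroid list reaches down to -5.34 for Car1.

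Transcription regulators of both lineages fell more often than they rose. Of 52 measured, 7 rose and 20 fell, and the median was -0.37, or -0.16 after quantile normalization, where 14 fell. In place of 7 that rose, the count was 3 without MkP replicate 1 and 4 without MkP replicate 2 or preMegE replicate 4. Fli1, the ETS factor of the megakaryocyte programme, measured 401, 725 and 697 in the MkP arrays and 93.5, 149, 192, 136 and 231 in the preMegE arrays. Its difference was 1.83 (SE 0.30, adjusted p = 9.78e-04), and the lowest MkP array stood above the highest preMegE array. Mef2c (1.12, adjusted p = 0.00174) and the CBP/p300-binding regulator Cited2 (1.42, adjusted p = 0.00506) were also higher. Runx1, which megakaryocytes need to mature, had means of 602 and 323 and a difference of 0.88 (SE 0.22, adjusted p = 0.0211). Calls were lost by Runx1 without MkP replicates 1 or 3 (adjusted p up to 0.102).

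Trib2, a pseudokinase that directs the degradation of C/EBP factors, was the largest fall of all genes, with 14.6, 20.7 and 21.8 in the MkP arrays and 1891, 1142, 1772, 1658 and 1444 in the preMegE arrays. The difference was -5.50 (SE 0.21, adjusted p = 6.90e-10). Klf1, the red cell activator, measured 316, 342 and 182 in the MkP arrays and 2129, 1819, 3200.3, 1840.4 and 1722 in the preMegE arrays, so its signal in MkP was still above the floor. It differed by -2.87 (SE 0.21, adjusted p = 5.37e-07), and Klf3 (-2.01, adjusted p = 3.51e-04), a repressor that Klf1 induces, was lower too. Myb, which marks cycling progenitors, was bright at 1973, 2209 and 1832 in the MkP arrays and 4474, 4285, 6548, 5062 and 4875 in the preMegE arrays and differed by -1.31 (SE 0.13, adjusted p = 1.62e-05). Lower values were likewise found for Sox4 (-1.89, adjusted p = 4.00e-04), Ikzf1 (-1.69, adjusted p = 1.64e-06), Hhex (-1.44, adjusted p = 1.02e-04), Myc (-1.43, adjusted p = 0.00132), Bcl11a (-1.36, adjusted p = 1.92e-04), Hoxa9 (-0.95, adjusted p = 0.00577) and Ldb1 (-1.38, adjusted p = 0.00129), the last a bridging cofactor of the GATA1 and TAL1 complex.

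Gata1 itself, shared by both lineages, was lower in MkP: 769, 889 and 511 in the MkP arrays and 1269, 955, 1416, 1254 and 1199 in the preMegE arrays, a difference of -0.77 (SE 0.15, adjusted p = 0.00331). The arrays did not overlap, though the gap between the lowest preMegE array and the highest MkP array was small beside that of Klf1. Gata2 (-0.66) and Nfe2 (-0.72) were also called lower, but not after quantile normalization (adjusted p = 0.309 and 0.111). The Gata1 cofactor Zfpm1, which encodes FOG1, had means of 903 and 648 and did not pass, at 0.49 (SE 0.21, adjusted p = 0.158). Neither did Gfi1b (-0.37 (SE 0.18, adjusted p = 0.208)) or the abundant Lmo2 (-0.37 (SE 0.37, adjusted p = 0.587)). The threshold was missed by Gata2 without any 1 of the 8 arrays (adjusted p up to 0.201) and Nfe2 without MkP replicates 1 or 3 or preMegE replicates 1, 3, 4 or 5 (adjusted p up to 0.223).

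Thrombopoietin and related cytokines signal through JAK kinases and STAT factors. In that list of 32 measured genes, 2 rose and 9 fell, or 6.25% and 28.1%, beside 3.98% and 6.38% of all genes. The median was -0.02, and 0.04 after quantile normalization, where 6 fell. In place of 2 that rose, the count was 5 without preMegE replicate 2. Il6ra, the interleukin 6 receptor alpha chain, measured 106, 123 and 96.6 in the MkP arrays and 14.4, 12.3, 11.9, 11.5 and 11.9 in the preMegE arrays and rose by 2.13 (SE 0.24, adjusted p = 3.54e-05). The feedback inhibitor Socs2 (0.93, adjusted p = 0.00129) was the other rise. Ifngr1, a chain of the interferon gamma receptor, fell from 801, 699.7, 1116, 771 and 873 in the preMegE arrays to 127, 120.4 and 85.8 in the MkP arrays, a difference of -2.77 (SE 0.17, adjusted p = 1.24e-07). Grb2 (-1.26, adjusted p = 0.00609) and Stat5b (-0.95, adjusted p = 0.0011), which carry signals from these receptors, were lower. Epor, the erythropoietin receptor, was lower at -0.88 (SE 0.19, adjusted p = 0.00959). Tgfbr2, a receptor for transforming growth factor beta, did not pass, at -0.70 (SE 0.24, adjusted p = 0.0848). The test was not passed by Epor without MkP replicate 3 (adjusted p up to 0.0679).

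Among the genes of the gates, 1 rose (Itga2b) and 2 fell of 8 measured. Kit measured 169.8, 248 and 136 in the MkP arrays and 792, 451, 918, 646 and 595 in the preMegE arrays, a difference of -1.79 (SE 0.25, adjusted p = 3.01e-04) between fractions that were both sorted as Kit+. Slamf1, positive in both gates, gave 52.4, 66.5 and 57.1 in the MkP arrays and 106, 83.1, 114, 112 and 91.8 in the preMegE arrays and a difference of -0.65 (SE 0.09, adjusted p = 3.76e-04). Eng, low in the preMegE gate and not part of the MkP gate, did not pass, with means of 201 and 234 and a difference of -0.22 (SE 0.14, adjusted p = 0.36), which turned to 0.09 after quantile normalization. The Fc gamma receptor genes Fcgr2b (0.09) and Fcgr3 (-0.10) and the lymphoid gate genes Il7r (0.08) and Flt3 (0.26) did not pass either.

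Red cell genes fell in part. Of 34 measured, 16 fell, 1 rose and 17 did not pass, with a median of -0.48, and -0.50 after quantile normalization. Car1, carbonic anhydrase of early red cells, measured 199.5, 50.4 and 94.0 in the MkP arrays and 5323, 3910.4, 5696, 4806 and 4051 in the preMegE arrays, a difference of -5.34 (SE 0.29, adjusted p = 3.22e-08). The MkP arrays varied among themselves here, but the highest was still far below the lowest preMegE array. Ermap, a red cell surface protein of the Scianna blood group, gave 124, 34.2 and 59.95 in the MkP arrays and 1522, 956, 1630.3, 1330.3 and 935 in the preMegE arrays, or -3.95 (SE 0.33, adjusted p = 2.32e-06). For Aqp1, the water channel of red cells, the values were 84.1, 98.7 and 48.1 in the MkP arrays and 1349, 700.4, 1044, 1087 and 894 in the preMegE arrays, with a difference of -3.48 (SE 0.24, adjusted p = 3.51e-07).

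The blood group genes Rhag (-2.88, adjusted p = 6.54e-08), Kel (-2.49, adjusted p = 5.94e-07) and Rhd (-0.98, adjusted p = 0.00222), the sodium pump subunit Atp1b2 (-3.18, adjusted p = 4.09e-08), the carboxylesterase Ces2g (-3.44, adjusted p = 1.72e-08), the tetraspanin Tspan33 (-1.80, adjusted p = 5.76e-05) and transferrin receptor family member Tfr2 (-1.31, adjusted p = 3.80e-05) were lower. Sptb, the red cell beta spectrin, was the single rise, at 0.48 (SE 0.10, adjusted p = 0.00618), from a mean of 27.6 to 44.8. Car2 had means of 1291 and 2253 and did not pass, at -0.86 (SE 0.34, adjusted p = 0.129). Genes of late red cells were near the floor in both fractions: Hba-a1, an alpha globin, had means of 9.73 and 8.82, and Slc4a1, the anion exchanger, 13.2 and 10.4.

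Heme synthesis and iron handling genes gave 7 falls and 0 rises among 24, with a median of -0.46. In place of 7 that fell, the count was 4 without MkP replicate 3. Slc40a1 encodes ferroportin, the iron exporter, and measured 26.9, 17.5 and 31.7 in the MkP arrays and 457, 299, 409, 474 and 435 in the preMegE arrays, a difference of -3.38 (SE 0.16, adjusted p = 9.03e-09). The biliverdin reductase Blvrb (-2.26, adjusted p = 8.76e-06), the iron importer Slc11a2 (-1.17, adjusted p = 5.19e-05), the heme synthesis enzymes Alad (-1.06, adjusted p = 0.0107) and Urod (-1.004, adjusted p = 0.00487), and Aco1 (-1.43, adjusted p = 0.0272), which senses iron as an RNA-binding protein, were lower. Fth1, the ferritin heavy chain, was bright with means of 1552 and 1848 and did not pass, at -0.25 (SE 0.15, adjusted p = 0.319), a sign that turned with the mean over its probe sets. The red cell form of the first enzyme of the pathway, Alas2 (0.17), did not pass, and its means were 14.8 and 11.3. Aco1 missed the threshold after quantile normalization (adjusted p = 0.107). With single arrays left out, the call was lost by Alad without MkP replicate 3 (adjusted p up to 0.0691) and Aco1 without MkP replicates 2 or 3 or preMegE replicates 3 or 5 (adjusted p up to 0.114).

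Several of the largest falls lay outside the red cell lists. Scin, a calcium-dependent actin-severing protein, was near the floor in MkP and measured 14.9, 19.5 and 13.6 in the MkP arrays and 636, 399, 845, 539 and 619 in the preMegE arrays, a difference of -4.25 (SE 0.19, adjusted p = 3.06e-09). Lgals1, the lectin galectin 1, gave 29.0, 61.9 and 17.2 in the MkP arrays and 1394, 1389.8, 1133, 1414 and 1704 in the preMegE arrays, or -4.85 (SE 0.29, adjusted p = 9.41e-08). Vim, vimentin, an intermediate filament protein, differed by -2.16 (SE 0.15, adjusted p = 3.42e-07), with 489.9, 458 and 449.5 in the MkP arrays and 1845, 1986, 2935, 2072 and 1999 in the preMegE arrays. These 3 belong to a list of 24 vimentin, galectin and actin-binding genes, of which 9 fell and 2 rose, with a median of -0.57 and of -0.28 after quantile normalization. In place of 2 that rose, the count was 1 without MkP replicates 1 or 3 or preMegE replicates 1, 2 or 4, and in place of 9 that fell, the count was 5 without MkP replicate 3. Limd2 (-1.18, adjusted p = 0.00153), galectin 9, Lgals9 (-1.20, adjusted p = 0.023), plastin 2, Lcp1 (-0.86, adjusted p = 0.00696), and moesin, Msn (-0.84, adjusted p = 0.00207), which ties the membrane to actin, were also lower, and transgelin 2, Tagln2 (0.57, adjusted p = 6.14e-04), and cofilin, Cfl1 (0.38, adjusted p = 0.0497), were higher. Radixin, Rdx, did not pass, at -0.63 (SE 0.32, adjusted p = 0.246). A call did not hold for Lgals9 without MkP replicates 1 or 3 or preMegE replicates 1 or 3 (adjusted p up to 0.11), Lcp1 without MkP replicate 3 (adjusted p up to 0.0524) and Cfl1 without MkP replicates 1, 2 or 3 or preMegE replicates 1, 2 or 4 (adjusted p up to 0.166).

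St8sia6, a sialyltransferase, measured 84.1, 39.5 and 53.1 in the MkP arrays and 1316, 834, 2124, 1224 and 1009 in the preMegE arrays, a difference of -4.11 (SE 0.27, adjusted p = 2.19e-07). Ugcg, which makes glucosylceramide, gave 21.3, 43.1 and 24.3 in the MkP arrays and 779.8, 489, 653, 655 and 657 in the preMegE arrays, or -3.88 (SE 0.28, adjusted p = 5.37e-07). The RNA nucleotidyltransferase Tent5a (-4.05, adjusted p = 8.46e-10), the methyltransferase-like Mettl7a1 (-3.34, adjusted p = 5.68e-06), the lectins Zg16 (-3.94, adjusted p = 1.56e-07) and Clec4d (-3.31, adjusted p = 3.98e-06) and Trp53inp1 (-3.19, adjusted p = 1.13e-07), a target of p53, were the other large falls without overlap. None of these genes is a member of the red cell lists used here.

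**Figure D4:**
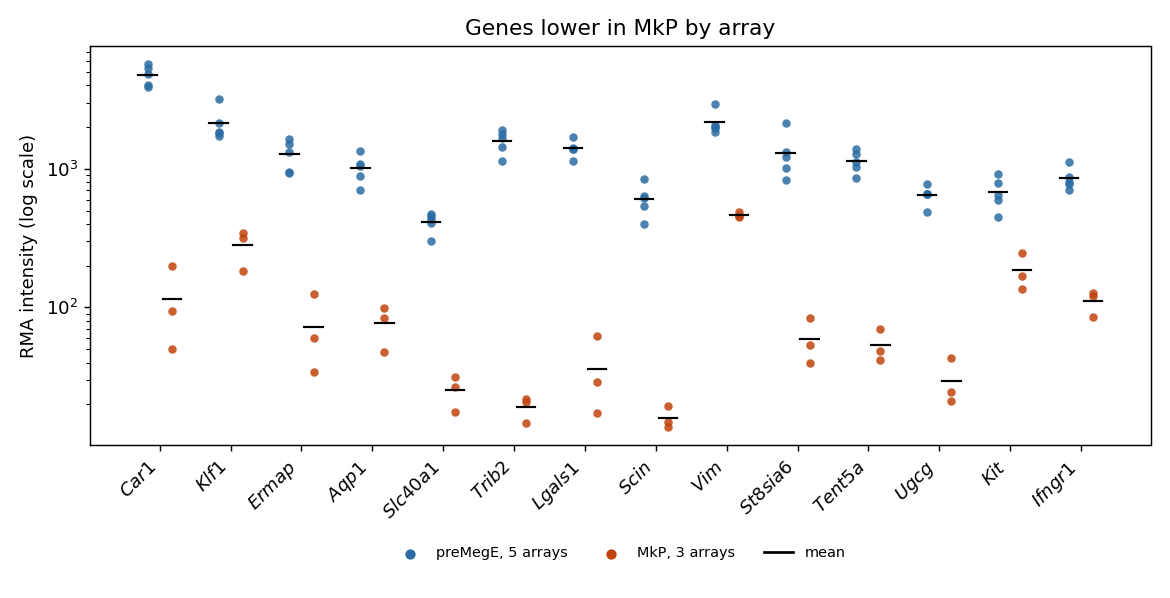
RMA intensity (y axis, log scale) of 14 genes lower in MkP, in the 5 preMegE arrays (blue) and the 3 MkP arrays (orange), 1 point per array with a bar at the mean. All MkP points lie below all preMegE points in each gene, and Vim and Kit, at -2.16 and -1.79, show the smallest differences.

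Adhesion and homing molecules of leukocytes fell in part. Of 29 integrins, selectin ligands and chemokine receptors, 8 fell and 1 rose, with a median of -0.07. In place of 1 that rose, the count was 2 without preMegE replicate 2 and 3 without MkP replicate 2, and in place of 8 that fell, the count was 5 without MkP replicate 3. Itga4, a chain of the receptor for VCAM1, measured 471, 448 and 410.1 in the MkP arrays and 1222, 832, 1590.2, 1022 and 905 in the preMegE arrays and differed by -1.26 (SE 0.19, adjusted p = 4.37e-04). Its partner Itgb7 (-1.26, adjusted p = 4.28e-04), the leukocyte integrin chain Itgal (-1.34, adjusted p = 0.00156) and the selectin ligand Selplg (-0.83, adjusted p = 5.57e-04) were lower, and Cd93 (1.32, adjusted p = 5.92e-05) was higher. Cd47, the signal that protects cells from phagocytosis, was bright with means of 1826 and 2396 and did not pass, at -0.39 (SE 0.14, adjusted p = 0.104).

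Genes of the mitotic spindle and of mitotic exit moved together. Of 28, 17 rose and 0 fell, and 27 had a higher value in MkP, passed or not. The median was 0.88, and 1.15 after quantile normalization. In place of 17 that rose, the count was 10 without MkP replicate 2. Ccna2, cyclin A2, measured 1035, 1056 and 944 in the MkP arrays and 375, 315, 343, 482 and 348 in the preMegE arrays, a difference of 1.42 (SE 0.16, adjusted p = 3.05e-05). Ube2c, the ubiquitin-conjugating enzyme of the anaphase-promoting complex, gave 359, 514 and 294 in the MkP arrays and 122, 95.4, 144, 166 and 106 in the preMegE arrays, or 1.49 (SE 0.18, adjusted p = 8.30e-05). The spindle protein Hmmr (1.34, adjusted p = 0.00167), the kinetochore protein Nuf2 (1.27, adjusted p = 0.0176), the checkpoint kinase Bub1b (1.204, adjusted p = 2.24e-05), the microtubule depolymerase Kif2c (1.19, adjusted p = 1.97e-05), separase Espl1 (1.11, adjusted p = 4.55e-04), securin Pttg1 (0.75, adjusted p = 4.82e-04) and the anaphase activator Cdc20 (0.91, adjusted p = 3.82e-04) were higher too. These differences lay between 0.75 and 1.49. The genes were picked for large differences past the test or after their values were seen, so this range does not describe the list. Mad2l1, a spindle checkpoint protein, did not pass, at 0.80 (SE 0.36, adjusted p = 0.184). Calls were lost by Nuf2 without MkP replicate 2 (adjusted p up to 0.0757).

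Cytokinesis genes, which divide the cytoplasm after mitosis, were split. Of 25, 10 rose and 3 fell, with a median of 0.36. In place of 10 that rose, the count was 5 without MkP replicate 2 or preMegE replicates 2 or 5 and 6 without MkP replicates 1 or 3 or preMegE replicates 1 or 4. The chromosomal passenger genes Incenp, Aurkb and Cdca8 were higher: Incenp measured 2841, 2446 and 2639.8 in the MkP arrays and 913, 833, 1295, 1010.3 and 975 in the preMegE arrays, a difference of 1.39 (SE 0.19, adjusted p = 2.04e-04), with Aurkb (1.19, adjusted p = 0.0077) and Cdca8 (1.21, adjusted p = 3.00e-04). So were Prc1 (1.39, adjusted p = 0.00166) and Kif4 (1.27, adjusted p = 0.00111), which bundle the microtubules of the central spindle, and the mitotic kinesin Kif20a (1.21, adjusted p = 0.0371). Against them stood Myh10, a motor of the contractile ring, and Ect2, the exchange factor that activates RhoA there, which had 58.7, 33.5 and 45.9 in the MkP arrays and 104, 82.4, 130.4, 121 and 82.5 in the preMegE arrays and a difference of -0.95 (SE 0.28, adjusted p = 0.0434). The phosphatase Cdc14b (-0.91, adjusted p = 0.00739) was the remaining fall. Ect2 missed the threshold after quantile normalization (adjusted p = 0.0633). Rhoa did not pass, with means of 493 and 696 and a difference of -0.46 (SE 0.34, adjusted p = 0.437). The threshold was missed by Kif20a without MkP replicates 1, 2 or 3 or preMegE replicates 1, 2, 4 or 5 (adjusted p up to 0.138) and Ect2 without MkP replicates 1, 2 or 3 or preMegE replicates 1, 3, 4 or 5 (adjusted p up to 0.142).

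DNA replication genes gave 8 rises and 0 falls among 38, with a median of 0.35, and 21 rises with a median of 0.61 after quantile normalization. In place of 8 that rose, the count was 4 without MkP replicate 2. Rrm2, the regulatory subunit of ribonucleotide reductase, measured 1528, 1106 and 1450.4 in the MkP arrays and 363, 368, 429, 474 and 528 in the preMegE arrays, a difference of 1.62 (SE 0.15, adjusted p = 5.49e-06). Mcm10 (0.76, adjusted p = 0.00129), a replication initiation factor, thymidylate synthase, Tyms (0.83, adjusted p = 0.0021), the flap endonuclease Fen1 (0.73, adjusted p = 1.20e-04) and the DNA polymerase subunits Pola1 (1.07, adjusted p = 0.0132) and Pole (0.73, adjusted p = 0.0367) were higher. Fen1 missed the threshold with the mean over its probe sets (adjusted p = 0.397). The helicase subunit Mcm7 was bright with means of 3930.4 and 3859 and did not pass, at 0.05 (SE 0.14, adjusted p = 0.864), a sign that turned with the mean over its probe sets and without preMegE replicate 2. The replication clamp Pcna did not pass, with means of 1783 and 2142 and a difference of -0.29 (SE 0.47, adjusted p = 0.762). The test was not passed by Pola1 without MkP replicate 2 (adjusted p up to 0.0653) and Pole without MkP replicates 1, 2 or 3 or preMegE replicates 1, 2, 4 or 5 (adjusted p up to 0.125).

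Regulators of cell cycle entry and arrest split in both directions, with 4 rises and 5 falls among 30 genes and a median of 0.08. In place of 4 that rose, the count was 2 without MkP replicate 2. E2f7, a repressive E2F factor active in cells that replicate without dividing, measured 179, 204 and 205 in the MkP arrays and 42.4, 35.1, 66.4, 44.5 and 43.9 in the preMegE arrays, a difference of 1.78 (SE 0.19, adjusted p = 2.85e-05). The inhibitor Cdkn1b (p27) was lower at 90.2, 84.8 and 89.7 in the MkP arrays and 166, 178, 194, 194 and 184 in the preMegE arrays, or -0.93 (SE 0.16, adjusted p = 0.00149). The antiproliferative genes Btg1 (-2.18, adjusted p = 0.00209) and Gadd45a (-2.26, adjusted p = 2.04e-05) and the G cyclins Ccng1 (-1.49, adjusted p = 1.01e-04) and Ccng2 (-1.70, adjusted p = 0.0147) were lower as well. The other rises were cyclin E1 (Ccne1 (0.77, adjusted p = 0.0472)), cyclin D3 (Ccnd3 (0.69, adjusted p = 0.0147)) and E2f2 (0.35, adjusted p = 0.0135). Ccnd3 was at -0.052 (adjusted p = 0.74) with the mean over its probe sets. Its probe sets disagreed in limma fitted to all probe sets with a gene. A dimmer one, with a mean of 59.79, was at -1.23 (adjusted p = 0.00188), and one at 0.39 did not pass. Cdk6, the bright cyclin D partner, did not pass, at -0.55 (SE 0.20, adjusted p = 0.1). With single arrays left out, the call was lost by Ccng2 without MkP replicates 1 or 3 (adjusted p up to 0.0915), Ccne1 without MkP replicates 1, 2 or 3 or preMegE replicates 1, 2, 3 or 4 (adjusted p up to 0.215), Ccnd3 without MkP replicate 2 (adjusted p up to 0.0751) and E2f2 without MkP replicate 2 (adjusted p up to 0.0602).

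Genes of stem and multipotent cells gave 8 rises and 6 falls among 27, and a median of 0.26. Fhl1, a LIM domain protein, rose by 3.52 (SE 0.12, adjusted p = 1.98e-10), with 449, 381 and 546 in the MkP arrays and 22.5, 25.8, 23.1, 27.6 and 25.9 in the preMegE arrays. Mecom, the stem cell factor EVI1, measured 92.2, 131 and 95.7 in the MkP arrays and 16.6, 19.7, 25.9, 14.8 and 23.4 in the preMegE arrays, a difference of 1.76 (SE 0.14, adjusted p = 9.86e-07). Ndn (1.29, adjusted p = 0.00152), Adgrg1 (1.06, adjusted p = 9.61e-04) and Hlf (0.79, adjusted p = 8.30e-05) were higher, and Txnip (-1.79, adjusted p = 3.82e-05) and Sox4 lower. Cd48, which stem cells lack, was lower at -2.04 (SE 0.51, adjusted p = 0.0181). A call did not hold for Cd48 without MkP replicates 1 or 3 (adjusted p up to 0.113).

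Of 23 granulocyte and monocyte genes, 2 rose and 1 fell, or 8.70% and 4.35%, beside 3.98% and 6.38% of all genes. In place of 2 that rose, the count was 1 without MkP replicates 1 or 3 or preMegE replicates 1, 3, 4 or 5. Plac8 was bright in preMegE and measured 443, 595 and 352 in the MkP arrays and 3936, 3262, 3353, 3808 and 3778 in the preMegE arrays, a difference of -2.95 (SE 0.23, adjusted p = 1.21e-06). Lysozyme, Lyz1 (1.48, adjusted p = 0.00202), and the macrophage colony-stimulating factor receptor, Csf1r (0.94, adjusted p = 0.0322), were higher in MkP. The other Csf1r probe sets did not pass in limma fitted to all probe sets with a gene, at -0.14 (adjusted p = 0.512) and 0.28 (adjusted p = 0.293). The chaperone Calr did not pass, at 0.51 (SE 0.18, adjusted p = 0.0841). The granule protease gene Elane, with means of 17.2 in MkP and 24.3 in preMegE, did not pass. Calls were lost by Csf1r without MkP replicates 1 or 3 or preMegE replicates 1, 3, 4 or 5 (adjusted p up to 0.163).

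Survival genes of the BCL2 family were mixed: 3 rose and 4 fell of 21. In place of 4 that fell, the count was 1 without MkP replicates 1 or 3 or preMegE replicates 1, 3 or 4 and 2 without MkP replicate 2 or preMegE replicate 5. Bcl2, the founding survival gene, measured 728, 987 and 823 in the MkP arrays and 423, 308, 549, 333 and 445 in the preMegE arrays and differed by 1.03 (SE 0.19, adjusted p = 0.00314). Bcl2l1 (BCL-XL), known to set platelet life span, gave 249, 293 and 221 in the MkP arrays and 117, 146, 136, 121 and 157 in the preMegE arrays, or 0.83 (SE 0.14, adjusted p = 0.00161). Bok (0.36, adjusted p = 0.0113) was the other rise. The falls were the death-promoting genes Bid (-1.48, adjusted p = 0.0371) and Bcl2l11 (-0.78, adjusted p = 0.0404), the apoptosis inhibitor Birc2 (-1.03, adjusted p = 0.034) and the survival gene Mcl1 (-0.47, adjusted p = 0.00121). Apaf1, which assembles the apoptosome, did not pass, at -0.78 (SE 0.27, adjusted p = 0.0824). After quantile normalization 1 gene fell in place of 4. Mcl1 (adjusted p = 0.147), Bcl2l11 (adjusted p = 0.232) and Birc2 (adjusted p = 0.0629) missed the threshold there. Bok missed it with a trended, robust variance prior (adjusted p = 0.0728). The threshold was missed by Bid without MkP replicates 1, 2 or 3 or preMegE replicates 1, 3, 4 or 5 (adjusted p up to 0.136), Bcl2l11 without MkP replicates 1, 2 or 3 or preMegE replicates 1, 3, 4 or 5 (adjusted p up to 0.211) and Birc2 without MkP replicates 1 or 3 or preMegE replicates 1, 3 or 4 (adjusted p up to 0.131).

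Lipid mediator genes of the eicosanoid and sphingosine-1-phosphate pathways gave 4 rises and 5 falls among 24. In place of 4 that rose, the count was 2 without MkP replicates 1 or 2. The rises were all of eicosanoid enzymes: Alox5 (1.23, adjusted p = 1.20e-04), Tbxas1 (1.12, adjusted p = 1.61e-04), which makes thromboxane, Pla2g4a (1.01, adjusted p = 0.0221), which frees arachidonic acid, and Hpgds (0.18, adjusted p = 0.0311). The falls were all of sphingosine-1-phosphate genes: the exporters Mfsd2b (-1.22, adjusted p = 3.15e-05) and Spns2 (-0.80, adjusted p = 0.00433), the receptors S1pr4 (-1.87, adjusted p = 1.92e-05) and S1pr1 (-0.48, adjusted p = 0.032), and the phosphatase Sgpp1 (-1.16, adjusted p = 0.00733). S1pr4 measured 82.6, 111 and 85.8 in the MkP arrays and 332, 358, 517, 322 and 402 in the preMegE arrays, without overlap. Lta4h, which makes leukotriene B, did not pass, at -0.32 (SE 0.33, adjusted p = 0.598). The test was not passed by Pla2g4a without MkP replicates 1 or 2 (adjusted p up to 0.0964), Hpgds without MkP replicates 1, 2 or 3 or preMegE replicates 1, 3, 4 or 5 (adjusted p up to 0.138) and S1pr1 without MkP replicates 2 or 3 or preMegE replicates 1, 2, 3 or 5 (adjusted p up to 0.125).

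Calcium handling genes gave 4 rises and 2 falls among 23, or 17.4% and 8.70%, beside 3.98% and 6.38% of all genes. In place of 2 that fell, the count was 1 without MkP replicate 3 or preMegE replicates 1, 3 or 4 and 4 without preMegE replicate 2. Atp2a3, the calcium pump of the platelet dense tubular system, measured 413, 437 and 439 in the MkP arrays and 96.7, 71.5, 124, 82.3 and 121 in the preMegE arrays, a difference of 1.98 (SE 0.20, adjusted p = 1.62e-05). The other rises were Trpc6, S100a6 (0.46, adjusted p = 0.00497) and the calcium sensor Stim1 (0.37, adjusted p = 0.0462). S100a10, the annexin A2 partner, was lower at 580.4, 489.7 and 498 in the MkP arrays and 2445, 2890.5, 2252, 2966 and 3293 in the preMegE arrays, or -2.36 (SE 0.26, adjusted p = 3.03e-05), and so was Anxa2 (-0.94, adjusted p = 0.0278). Camkk2, a calmodulin-dependent kinase, did not pass, at -0.25 (SE 0.23, adjusted p = 0.538). Anxa2 missed the threshold after quantile normalization (adjusted p = 0.131). With single arrays left out, the call was lost by Stim1 without MkP replicates 2 or 3 or preMegE replicates 1, 2, 3, 4 or 5 (adjusted p up to 0.206) and Anxa2 without MkP replicate 3 or preMegE replicates 1, 3 or 4 (adjusted p up to 0.159).

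Glycolysis and glucose uptake gave 4 rises and 0 falls among 20, and 9 rises after quantile normalization. They were pyruvate kinase Pkm (1.63, adjusted p = 4.72e-04), the glucose transporter Slc2a1 (1.12, adjusted p = 2.78e-06), Ldhb (0.56, adjusted p = 4.90e-04) and Aldoc (0.48, adjusted p = 0.0293). Pgk1, phosphoglycerate kinase, did not pass, at 0.63 (SE 0.22, adjusted p = 0.0837). Cholesterol and fatty acid synthesis gave 2 rises and 1 fall among 25, or 8% and 4%, beside 3.98% and 6.38% of all genes. The median of that list was 0.09. Acaca (0.61, adjusted p = 0.0107) and Elovl6 (0.47, adjusted p = 0.0495) rose and Scd2 (-0.79, adjusted p = 0.023) fell. In place of 2 that rose, the count was 0 without MkP replicate 3 and 1 without preMegE replicates 2, 3 or 5, and in place of 1 that fell, the count was 0 without MkP replicates 1 or 3 or preMegE replicate 1. Acly, ATP citrate lyase, did not pass, at -0.21 (SE 0.13, adjusted p = 0.338). Among 59 Rab GTPase genes, 3 (Rab27a, Rab27b and Rab42 (0.19, adjusted p = 0.0417)) rose and 5 fell, or 5.08% and 8.47%, near the 3.98% and 6.38% of all genes. In place of 3 that rose, the count was 1 without MkP replicate 3, and in place of 5 that fell, the count was 2 without MkP replicate 3. The largest fall was that of the recycling GTPase Rab4a (-2.06, adjusted p = 4.47e-05), with Rab44 (-1.18, adjusted p = 0.0198), Rab37 (-1.003, adjusted p = 0.01), Rab22a (-0.85, adjusted p = 0.0248) and Rab8b (-0.74, adjusted p = 0.0169) also lower. Rab42 and Rab22a missed the threshold after quantile normalization (adjusted p = 0.159 and 0.162). A call did not hold for Aldoc without MkP replicates 1 or 3 or preMegE replicates 1, 3, 4 or 5 (adjusted p up to 0.137), Acaca without MkP replicate 3 (adjusted p up to 0.0524), Elovl6 without MkP replicates 2 or 3 or preMegE replicates 2, 3 or 5 (adjusted p up to 0.202), Scd2 without MkP replicates 1 or 3 or preMegE replicate 1 (adjusted p up to 0.115), Rab42 without MkP replicates 2 or 3 or preMegE replicates 1, 3, 4 or 5 (adjusted p up to 0.145), Rab44 without MkP replicates 2 or 3 (adjusted p up to 0.0752), Rab22a without MkP replicates 1 or 3 or preMegE replicates 1 or 3 (adjusted p up to 0.123) and Rab8b without MkP replicate 3 (adjusted p up to 0.109).

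Interferon response genes gave 10 falls and 0 rises among 25, with a median of -0.53. After quantile normalization 10 fell and the median was -0.29. Iigp1, an interferon-induced GTPase, measured 26.3, 33.9 and 50.9 in the MkP arrays and 301, 197, 396, 224 and 292 in the preMegE arrays, a difference of -2.48 (SE 0.28, adjusted p = 3.64e-05). The related GTPases Igtp (-1.39, adjusted p = 1.39e-05) and Gbp2 (-1.20, adjusted p = 3.11e-05), the factors Irf9 (-1.44, adjusted p = 1.13e-04) and Irf1 (-0.78, adjusted p = 0.00185), and the antiviral genes Ifit1 (-1.61, adjusted p = 9.83e-05), Ifih1 (-1.05, adjusted p = 0.0189) and Ddx58 (-0.81, adjusted p = 0.00218) were lower. Ifi47 did not pass, with means of 1748 and 1544. Calls were lost by Ifih1 without MkP replicates 1 or 3 (adjusted p up to 0.0697).

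Lists of genes of protein synthesis, respiration and protein turnover had medians below 0, where the brightest bin of all genes stood at -0.30, or at -0.03 after quantile normalization. Of 49 cytosolic ribosomal protein genes, 11 fell and 0 rose, with a median of -0.48, which became -0.28 with 7 falls after quantile normalization. In place of 11 that fell, the count was 1 without MkP replicate 3, 3 without preMegE replicate 4, 4 without MkP replicate 1 or preMegE replicate 5 and 6 without preMegE replicate 1. The falls of largest size were Rpl11 (-1.11, adjusted p = 0.021) and Rps24 (-1.03, adjusted p = 0.0226). Of 25 ribosome biogenesis genes, 3 fell and 0 rose, and all 25 had a lower value in MkP, with a median of -0.45, or -0.24 after quantile normalization. In place of 3 that fell, the count was 1 without MkP replicates 1 or 3 and 5 without preMegE replicate 2. The falls were Myc, Gnl3 (-0.89, adjusted p = 0.0198) and Polr1b (-0.80, adjusted p = 0.0454). The nucleolar protein Npm1 was bright, at 2763, 3815 and 2935 in the MkP arrays and 5104, 4207, 5495, 5272 and 5045 in the preMegE arrays, and did not pass, with -0.67 (SE 0.24, adjusted p = 0.1). The threshold was missed by Rpl11 without MkP replicates 1 or 3 (adjusted p up to 0.0871), Rps24 without MkP replicates 1 or 3 or preMegE replicate 4 (adjusted p up to 0.0893), Gnl3 without MkP replicates 1 or 3 (adjusted p up to 0.112) and Polr1b without MkP replicates 1 or 3 or preMegE replicates 1, 3 or 4 (adjusted p up to 0.19).

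The 76 mitochondrial ribosomal protein genes gave 3 falls, 0 rises and a median of -0.33, which was -0.07 after quantile normalization. The falls made up 3.95% of the list, beside 6.38% of all genes. Mrpl52 was the largest fall among them, with 931, 875 and 736 in the MkP arrays and 2059, 2830.5, 1550.0, 2696 and 2631 in the preMegE arrays and -1.43 (SE 0.19, adjusted p = 1.45e-04), followed by Mrpl19 (-0.93, adjusted p = 0.0448) and Mrpl36 (-0.72, adjusted p = 0.0327). In place of 3 that fell, the count was 1 without MkP replicates 1 or 3 or preMegE replicates 1, 4 or 5. Respiratory chain and ATP synthase genes gave 3 rises and 8 falls among 90, and their median of -0.18 changed sign to 0.04 after quantile normalization. These shares are 3.33% and 8.89%, beside 3.98% and 6.38% of all genes. In place of 3 that rose, the count was 1 without MkP replicates 1 or 2 or preMegE replicates 1 or 3, and in place of 8 that fell, the count was 4 without MkP replicate 3 or preMegE replicate 4 and 5 without MkP replicates 1 or 2 or preMegE replicates 1 or 5. The falls of largest size were Cox6b2 (-1.72, adjusted p = 1.69e-05), a subunit of cytochrome c oxidase, and Ndufaf6 (-1.27, adjusted p = 0.013), an assembly factor of complex I, followed by Ndufa6 (-1.09, adjusted p = 0.00824), Ndufaf1 (-1.01, adjusted p = 0.0478), Cox7a2l (-0.92, adjusted p = 0.00496), Atp5l (-0.86, adjusted p = 0.021), Ndufaf4 (-0.56, adjusted p = 0.0367) and Ndufb11 (-0.54, adjusted p = 0.0303). The rises were Ndufv3 (0.71, adjusted p = 0.00203), Ndufa3 (0.51, adjusted p = 0.0437) and Cox5b (0.30, adjusted p = 0.0227). Ndufaf1, Ndufaf4 and Ndufb11 missed the threshold after quantile normalization (adjusted p = 0.0784, 0.433 and 0.0579). Proteasome subunits (40 genes) gave 1 fall, of the immunoproteasome gene Psmb9 (-1.002, adjusted p = 0.0245), and a median of -0.40, aminoacyl-tRNA synthetases (32 genes) 1 rise, of Aars (0.80, adjusted p = 0.0113), and -0.15, and chaperonins (12 genes) no call and -0.36. For proteasome subunits, in place of 0 that rose, the count was 1 without preMegE replicate 2, and in place of 1 that fell, the count was 0 without MkP replicates 1 or 3 or preMegE replicates 1 or 5 and 2 without MkP replicate 2. For the synthetases, in place of 1 that rose, the count was 0 without MkP replicate 3, and in place of 0 that fell, the count was 1 without preMegE replicate 2. After quantile normalization these medians were -0.15, -0.01 and -0.17. The test was not passed by Mrpl19 without MkP replicates 1, 2 or 3 or preMegE replicates 1, 3, 4 or 5 (adjusted p up to 0.19), Mrpl36 without MkP replicates 1 or 3 or preMegE replicates 1, 4 or 5 (adjusted p up to 0.171), Ndufaf6 without MkP replicate 3 (adjusted p up to 0.0534), Ndufaf1 without MkP replicates 1, 2 or 3 or preMegE replicates 1, 3, 4 or 5 (adjusted p up to 0.156), Atp5l without MkP replicates 1 or 2 or preMegE replicate 4 (adjusted p up to 0.0871), Ndufaf4 without MkP replicates 2 or 3 or preMegE replicates 1, 4 or 5 (adjusted p up to 0.154), Ndufb11 without MkP replicates 1 or 3 or preMegE replicates 1, 4 or 5 (adjusted p up to 0.155), Ndufa3 without MkP replicates 1, 2 or 3 or preMegE replicates 1, 3 or 4 (adjusted p up to 0.203), Cox5b without MkP replicates 1 or 2 or preMegE replicates 1 or 3 (adjusted p up to 0.129), Psmb9 without MkP replicates 1 or 3 or preMegE replicates 1 or 5 (adjusted p up to 0.12) and Aars without MkP replicate 3 (adjusted p up to 0.0562).

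Markers of other bone marrow cells were measured beside these results. Neutrophil markers (10 genes) gave no call, but their summed intensity varied within both fractions, at 177 to 1642 in the MkP arrays and 167 to 1824 in the preMegE arrays. Markers of mast cells and basophils summed to 179 to 232 in the MkP arrays and 291 to 354 in the preMegE arrays, and Cpa3, a mast cell protease, was the only call among 10, at -2.02 (SE 0.16, adjusted p = 8.27e-07). Macrophage markers gave 2 rises, Csf1r (0.94, adjusted p = 0.0322) and Adgre1 (0.34, adjusted p = 0.0303), among 10 and sums of 195 to 283 in the MkP arrays and 165 to 219.7 in the preMegE arrays. As given above, the other Csf1r probe sets did not pass. The markers with the highest mean that did not pass were Ngp of neutrophils at 0.12 (SE 0.90, adjusted p = 0.955), Hdc of mast cells and basophils at 0.25 (SE 0.20, adjusted p = 0.474) and Vcam1 of macrophages at 0.00 (SE 0.13, adjusted p = 0.999). For macrophage markers, in place of 2 that rose, the count was 0 without MkP replicates 1 or 3 or preMegE replicates 1, 3 or 4 and 1 without preMegE replicate 5. Their part in the results above was not tested. With single arrays left out, the call was lost by Adgre1 without MkP replicates 1 or 3 or preMegE replicates 1, 3 or 4 (adjusted p up to 0.139).

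Markers of the B lineage, from precursors to plasma cells (10 genes, 1 fall, of Vpreb1 (-0.84, adjusted p = 0.026)), summed to 215 to 226 in the MkP arrays and 168 to 258 in the preMegE arrays. Those of T and NK cells (8 genes, no call) summed to 176 to 220.3 in the MkP arrays and 134 to 192 in the preMegE arrays. Eosinophil markers (5 genes, no call) summed to 49.9 to 61.5 in the MkP arrays and 41.7 to 59.9 in the preMegE arrays, and dendritic cell markers (9 genes, no call) to 295 to 335 in the MkP arrays and 315 to 328 in the preMegE arrays. Endothelial and stromal markers (10 genes) summed to 307 to 411 in the MkP arrays and 441 to 624 in the preMegE arrays, with 1 rise, the VEGF receptor Kdr (0.84, adjusted p = 8.42e-04), and 1 fall, the PDGF receptor Pdgfrb (-2.73, adjusted p = 3.67e-05). In the same way, Igll1 of the B lineage was at 0.01 (SE 0.18, adjusted p = 0.981), Cd3e of T cells at 0.32 (SE 0.15, adjusted p = 0.213), Prg3 of eosinophils at 0.17 (SE 0.13, adjusted p = 0.455), H2-Ab1 of dendritic cells at -0.54 (SE 0.26, adjusted p = 0.208) and Tek of endothelium at 0.17 (SE 0.24, adjusted p = 0.709), and none of these passed. The signs of Ngp, Hdc, Vcam1, Igll1 and Tek changed in at least 1 other setting or with 1 array left out. Some defining markers were near the floor, such as Cdh5 of endothelium with means of 11.2 and 12.1 and Epx of eosinophils with 9.29 and 9.66. Not all were: a mean under 16 over the 8 arrays was found for 6 of 10 endothelial and stromal and 4 of 5 eosinophil markers. It was found for 1 of 9 dendritic cell and 0 of 10 neutrophil markers. For macrophages, mast cells and basophils, and the B lineage it was 5 of 10 each, and for T and NK cells 4 of 8. Of 18 immediate-early genes, which respond to handling, 1, Egr1 (-1.37, adjusted p = 0.0207), fell and 0 rose, with a median of 0.04. The fall made up 5.56%, beside 6.38% of all genes. After quantile normalization 0 fell and 1 rose, and Egr1 missed the threshold (adjusted p = 0.105). None of 4 sex-linked genes passed. The members with the highest mean that did not pass were Jund at 0.21 (SE 0.16, adjusted p = 0.477) and Xist at -0.77 (SE 0.30, adjusted p = 0.129). In the lists with no call in limma, the members at an unadjusted p under 0.05 numbered 1 for neutrophils, 1 for T and NK cells, 0 for eosinophils, 1 for dendritic cells, 2 for chaperonins and 1 for sex-linked genes. Neutrophil genes that rose numbered 1 without MkP replicate 2, in place of 0. B and plasma cell genes that rose numbered 1 without MkP replicate 3 or preMegE replicate 2, in place of 0. B and plasma cell genes that fell numbered 0 without MkP replicates 1 or 3 or preMegE replicates 3 or 4, in place of 1. T and NK cell genes that rose numbered 1 without MkP replicate 1, in place of 0. Endothelial and stromal genes that rose numbered 2 without MkP replicate 2, in place of 1. Immediate-early genes that rose numbered 1 without preMegE replicate 5, in place of 0. Immediate-early genes that fell numbered 0 without MkP replicates 1 or 2, in place of 1. A call did not hold for Vpreb1 without MkP replicates 1 or 3 or preMegE replicates 3 or 4 (adjusted p up to 0.114) and Egr1 without MkP replicates 1 or 2 (adjusted p up to 0.0874).

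The levels were set beside those of the other fractions of the study: preCFUE (the next step toward red cells, sorted as preMegE but with high Eng, 3 arrays), preGM (the granulocyte and monocyte side, sorted as preMegE but without Slamf1, 3 arrays) and CLP (common lymphoid progenitors, Lin-Sca1lowKitlowIL7r+Flk2+, 3 arrays). The difference of MkP from preCFUE uses the same MkP arrays as that from preMegE, so the values are given side by side without a test between them. Pf4 had a mean of 6431 ± 316 (SD, n = 3) in MkP, 50.9 ± 10.0 (SD, n = 5) in preMegE, 37.2 ± 6.41 (SD, n = 3) in preCFUE, 28.9 ± 4.94 (SD, n = 3) in preGM and 23.4 ± 12.1 (SD, n = 3) in CLP. MkP minus preCFUE was 6.93 (adjusted p = 2.16e-11) on the log2 scale. For Vwf the means were 1938 ± 216 (SD, n = 3) in MkP, 112 ± 39.98 (SD, n = 5) in preMegE and 50.6 ± 9.44 (SD, n = 3) in preCFUE, with MkP minus preCFUE at 4.88 (adjusted p = 4.07e-09).

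Plek and Tmsb4x had another order. Plek averaged 2443 in MkP, 994 in preGM, 284 in preMegE and 214 in CLP, and 20.8 in preCFUE, where MkP minus preCFUE was 6.05 (adjusted p = 4.12e-08). Tmsb4x averaged 3469, 1902, 735, 1109.6 and 81.1 in the same fractions, with MkP minus preCFUE at 5.20 (adjusted p = 5.11e-10). Fli1 averaged 212 in preGM, 165 in CLP and 160.4 in preMegE, 3 fractions whose arrays overlapped, and 42.1 in preCFUE, with MkP minus preCFUE at 3.41 (adjusted p = 5.95e-06). MkP and preCFUE thus lay at opposite ends for these 3 genes, with preMegE between them.

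Among the genes lower in MkP, Klf1 averaged 2917 in preCFUE and 2142 in preMegE, whose arrays overlapped, 279.8 in MkP, 129.9 in preGM and 48.4 in CLP. MkP minus preCFUE was -3.35 (adjusted p = 2.11e-07). Trib2 averaged 1582 in preMegE and 738 in preCFUE, and its arrays in MkP (mean 19.0) overlapped those in CLP (mean 14.1). Scin was brightest in preMegE at 607, against 94.8 in preCFUE, 51.1 in preGM and 16.03 in MkP. Vim was lower in both branches, with 2167 in preMegE, 466 in MkP and 139 in preCFUE, and MkP minus preCFUE was 1.65 (adjusted p = 9.31e-06). Ccna2 averaged 1012 in MkP and 943 in preCFUE, a difference of 0.10 (adjusted p = 0.769) that did not pass, and 373 in preMegE.

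**Figure D5:**
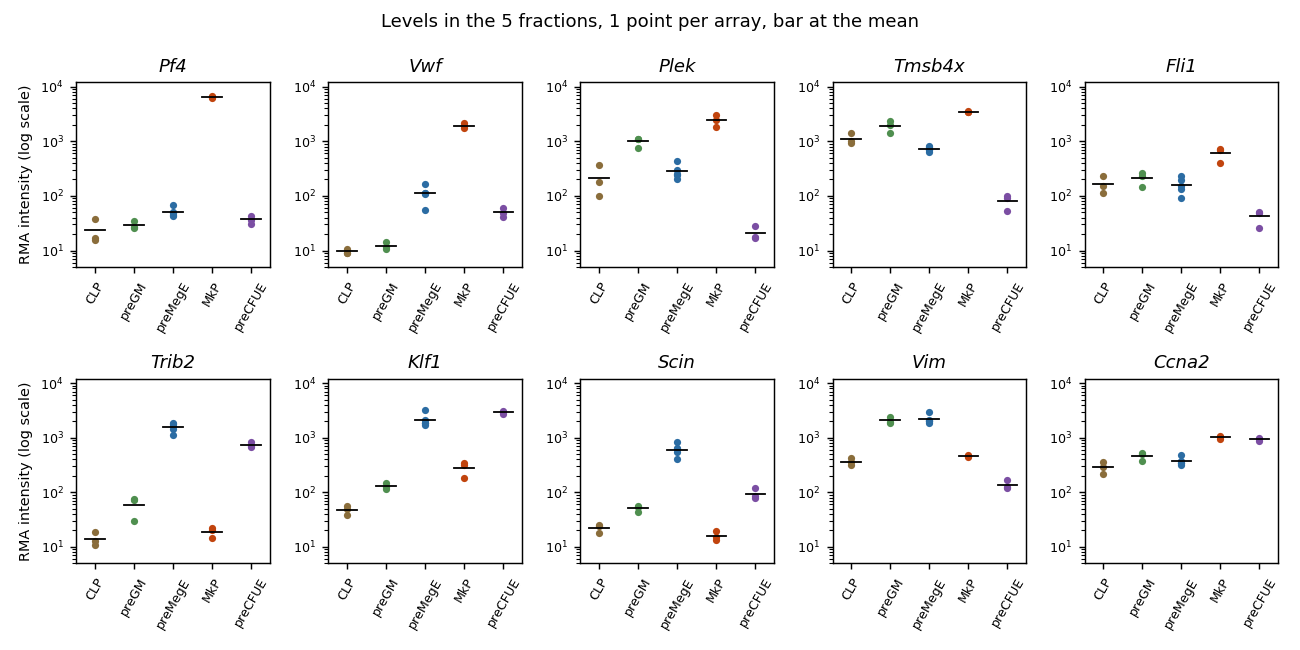
RMA intensity (y axis, log scale, the same in every panel) of 10 genes in the 5 fractions, 1 point per array and a bar at the mean. Pf4 and Vwf stand highest in MkP, Klf1 in preCFUE and preMegE, Scin in preMegE, and Ccna2 is higher in MkP (1012) and preCFUE (943) than in preMegE (373).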

How the data were processed

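5 fractions of mouse bone marrow were measured on 17 arrays, and the 8 MkP and preMegE arrays are compared here. The authors deposited RMA intensities, 1 value per probe set and array, extracted with RMA per the series' design text. Which RMA version or program was run is not given in the sources used here. Per the same text, RNA went through a small-sample amplification, and chips were scaled after scanning. The dChip step with its filter on SD over mean was an alternative here. Arrays were grouped and numbered by their titles. The free-text description names another gate for all 17 arrays and was not used.

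Of 45101 probe sets, 34958 had 1 gene symbol in the platform annotation, 932 had several and 9160 were not listed. For each of 18193 genes, of which 9010 had several probe sets, the probe set with the highest mean over the 17 arrays was used. Values under 16 made up 47.3% of the table, so fold changes, on the log2(intensity + 16) scale, understate changes of low genes. limma 3.58.1 in R 4.3.3 was fitted with 1 term per fraction to all arrays, with moderated variances and Benjamini-Hochberg adjustment over all genes, and was first tested on simulated data. Standard errors (SE) are limma's. Gene lists were described by counts and medians, with no list test.

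The members and lists were chosen with earlier results of these data known. By rule, the text names the gate genes, the 15 largest rises and falls past the test without overlap, and, from each list, up to 6 members with the largest differences past the test (2 from each gene family) and the member with the highest mean that did not pass. Of the 280 genes named, 87 were chosen for their role after their values were seen. Alternatives changed the scaling, pseudocount, low-value filter, probe set choice, arrays in the fit, array weights, covariate, variance prior, replicate block and single arrays.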

Additional observations from a re-analysis of the deposited data

Results flagged for a closer look

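In 13 of the 280 genes named, 1 of the 5 preMegE arrays lay apart from the other 4 by Dixon's criterion, a gap of more than 0.71 of the range. Chance flags about 1 in 20 groups, and values given here are RMA intensities.

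Replicate 3 held 6 of them. It was high for Txnip (5770, the others 2667 to 3328), Vim (2935, the others 1845 to 2072), Bcl11a (2041, the others 1349 to 1521), Zfpm1 (971.1, the others 517 to 601.1) and Kel (250.2, the others 130.3 to 135.2), and low for Zg16 (771.4, the others 1153 to 1327).

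Replicate 2 was the low array for Grb2 (312.3, the others 414.9 to 421.4), Itga2b (209.4, the others 323.6 to 375.8), Stx11 (29.44, the others 44.85 to 48.91) and Rab27a (22.75, the others 55.44 to 75.12), and the high array for Fen1 (2634, the others 2400 to 2456). Replicate 5 was high for E2f2 (43.44, the others 29.82 to 32.87). Replicate 1 was high for Il6ra (14.39, the others 11.51 to 12.29), a signal near the floor.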

How the results depend on the processing

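Of the 230 named genes past the test, 160 kept their direction and their side of the threshold in every setting that tested them. After quantile normalization 20 of the 230 missed the threshold. Besides those given above, they were Adgre1, Hpgds, Mrpl36, Polr1b and Rabgef1. None of the 230 changed sign, except Ccnd3, which was at -0.052 (adjusted p = 0.74) with the mean over its probe sets. Sign changes among named genes that did not pass were as follows. After quantile normalization Eng was at 0.088, Itga2 at -0.0061 and Vcam1 at -0.081. With median centring Igll1 was at -0.031 and Vcam1 at -0.041, and with a pseudocount of 64 they were at -0.00062 and -0.0036. With the mean over probe sets Fth1 was at 0.13, Hdc at -0.021, Igll1 at -0.0086, Mcm7 at -0.065 and Vcam1 at -0.14. Igll1 was at -0.026 with array weights, and Vcam1 at -0.016 with the 3-prime over 5-prime covariate. Without 1 array each, Ngp ran from -0.83 to 1.201, Tek from -0.20 to 0.49, Vcam1 from -0.062 to 0.092, Igll1 from -0.099 to 0.093 and Mcm7 from -0.043 to 0.16.

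The count of 1884 genes past the test stayed within 1.5 times under both other scalings, both other pseudocounts, the filter on mean level, the mean over probe sets, the fit without CLP, the 3-prime over 5-prime covariate and the trended, robust prior. It was 899 (382 higher, 517 lower) with the SD over mean filter, where fewer genes were tested, and 3591 (1348 higher, 2243 lower) with array weights. With only the 8 arrays in the fit, 1742 genes were lower. For array weights and for the 8-array fit the cause was not tested. Without 1 array at a time the total ran from 1187 to 2302, the higher genes from 508 to 837 and the lower genes from 644 to 1465. The lowest total and lower count were those without MkP replicate 3.

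With the replicate number as a block, 970 genes passed (382 higher, 588 lower), 956 of them among the 1884. The deviations of same-numbered MkP and preMegE arrays correlated at -0.13, -0.38 and -0.20, and those of arrays with different numbers at -0.35 to 0.32. The labels do not say what the numbers mark, and whether they pair the arrays was not tested. The unblocked values are the ones reported, and the calls that the block removes depend on that choice.

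Signal over background limits the low genes: differences between values near 16 are shrunken by the pseudocount, and a gene listed near the floor in both fractions is not shown to be absent. With 3 arrays in 1 group, a call can rest on 1 array, as the counts without single arrays show.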
